A study of Mus musculus with 8 samples.

Results

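The Dlk1-Meg3 domain is a group of imprinted genes on distal mouse chromosome 12, and its 7 genes Begain, Dlk1, Meg3, Rtl1, Rian, Mirg and Dio3 were taken by name from the 26263 genes of the count tables. All 7 were found, and all 7 passed the filter on low counts that left 16399 genes for testing. RNA-seq of polyA RNA was available for embryonic stem cells (ESCs) and for neural precursor cells (NPCs) obtained after 12 days of in vitro corticogenesis, each from both directions of a cross between the mouse strains C57BL/6 and JF1. The B/J groups, with the genotype C57BL/6 x JF1, came from the male line BJE2, and the J/B groups, with the genotype JF1 x C57BL/6, came from the male line JBE6. Each of the 4 groups had 2 libraries, 8 in all. ESCs were grown on gelatin in a medium with LIF, BMP4 and an inhibitor of GSK3-β, and the differentiating cells were plated on Matrigel in a default medium with B27 and dorsomorphin homolog 1. Each cross is represented by a single line, so that cross and line cannot be told apart. Nothing in the labels says that the 2 libraries of a group came from separate cultures, so p-values measure the spread between these libraries, which may be technical. Reads of both parental alleles were counted together, and parental origin was not analysed here.

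In the embryo, the genes of this domain are expressed from one parental chromosome each. Dlk1, Rtl1 and Dio3 are the protein-coding genes expressed from the paternal chromosome, whereas Meg3, Rian and Mirg are noncoding RNAs expressed from the maternal chromosome, where they are usually regarded as parts of a single long transcription unit that also carries clusters of C/D box snoRNAs and of microRNAs. A differentially methylated region between Dlk1 and Meg3 controls the imprint, and the Meg3 side of the domain is known for its variable silencing among mouse pluripotent stem cell lines. Dlk1 is a membrane protein related to the Notch ligands with a role in neural stem cells, and Dio3 is the deiodinase that inactivates thyroid hormone.

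In GRCm39, the build of the deposited files (mm39), the domain lies on chromosome 12. Begain, which encodes a postsynaptic protein and borders the domain, is on the minus strand at chr12:108998104-109034294. Dlk1 is on the plus strand at chr12:109418749-109429262, 384 kb from Begain. Meg3 follows 77.6 kb further at chr12:109506877-109538165, Rian at chr12:109570242-109628150 and Mirg at chr12:109696198-109715898, all on the plus strand, with gaps of 32.1 kb between Meg3 and Rian and of 68.0 kb between Rian and Mirg. Rtl1 is on the opposite strand at chr12:109555627-109582007, between Meg3 and Rian and in part across the start of Rian, although no annotated exon of any of the 7 genes overlaps an exon of another. Dio3, with 2030 bases of exon, lies 530 kb beyond Mirg at chr12:110245502-110247531. The annotation gives 85 transcripts for Meg3, 70 for Rian and 34 for Mirg.

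The tie between the maternal transcripts and Rtl1 is visible in the sequences themselves. Of 114 mature microRNAs of the 61 hairpin rows between Dlk1 and Dio3, 13 from 7 hairpins were found by exact match to be fully complementary to an annotated Rtl1 transcript. The following were chosen because their hairpins lie within the Rtl1 coding sequence on the opposite strand (RefSeq, GRCm38.p6). The seed, bases 2 to 8, is in capitals.
miR-431-5p: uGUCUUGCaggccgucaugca
miR-433-3p: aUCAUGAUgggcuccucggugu
miR-127-3p: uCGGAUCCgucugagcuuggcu
miR-434-3p: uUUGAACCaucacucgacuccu
miR-136-5p: aCUCCAUUuguuuugaugaugg
None of these 5 shares its seed with another. The stretch of the Rtl1 transcript that pairs with all 22 bases of miR-127-3p reads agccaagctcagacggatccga, 5′ to 3′. Elsewhere in the cluster a seed was shared in 10 cases, covering 20 of the mature sequences, and the other seeds of the 104 occurred once. A pair of these is shown because the hairpins are separate and the sequences beyond the seed differ.
miR-379-5p: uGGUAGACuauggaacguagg
miR-1193-5p: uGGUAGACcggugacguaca

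The promoter of Meg3 is shown because Meg3 is the start of the maternal transcripts and the member against which the others are compared below. RefSeq windows from 250 bases before to 50 bases after a start (GRCm38.p6) were found for 6 of the 7 genes, Rtl1 not among them. The first of the Meg3 windows, on the plus strand, reads 5′ to 3′ as follows, with motif matches in capitals.
Meg3 promoter: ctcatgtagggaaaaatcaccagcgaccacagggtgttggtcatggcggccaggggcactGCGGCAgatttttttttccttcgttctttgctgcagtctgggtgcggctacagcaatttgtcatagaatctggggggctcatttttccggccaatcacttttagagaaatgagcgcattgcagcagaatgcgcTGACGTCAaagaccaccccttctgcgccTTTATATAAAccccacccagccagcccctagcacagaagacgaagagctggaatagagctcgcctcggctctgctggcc
On both strands, 3 motifs were searched. TGACGTCA, the cAMP response element, was found at position -57, counted from the start, and is present in 1.79% of the 32851 windows of this length. TATAAA, the core of the TATA box, was found at -29 on the reverse strand and at -25 on the forward strand, overlapping each other, and is present in 13.6% of windows. TGCCGC, the hexamer bound in methylated form by ZFP57, was found once, on the reverse strand at -190, and is present in 11.6% of windows. Among the windows of the other members, Dio3 held a TATAAA at -31, and no match of the 3 motifs was found for Dlk1, Rian, Mirg or Begain. The window of Meg3 contained 13 CpG dinucleotides, that of Dio3 25 and that of Rian 0.

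The depth of the libraries ranged from 22537138 to 32706015 reads counted on genes. Levels are given in CPM, the counts scaled by the depth of the library, on which scale a single count was worth between 0.0306 and 0.0444. Of the ESC markers, Pou5f1 averaged 1638 ± 305 CPM (SD, n = 4) in ESCs and 31.1 ± 18.6 CPM (SD, n = 4) in NPCs, and the sum of 10 neural precursor markers was between 208 and 267 CPM in ESCs and between 685 and 1667 CPM in NPCs. Pax6, a marker of dorsal precursors, did not pass the test between the stages (35.8 ± 20.9 against 6.96 ± 5.81 CPM, SD, n = 4 each; edgeR, adjusted p = 0.0606). Markers of some other cell types were also higher in NPCs. The sum of 10 trophoblast markers was between 26.0 and 86.3 CPM in ESCs and between 1027 and 2604 CPM in NPCs, that of 10 fibroblast and mesenchyme markers between 10.1 and 70.6 against 926 and 2236 CPM, and that of 10 endoderm markers between 11.8 and 16.1 against 42.7 and 135 CPM. ESC and NPC sums overlapped for 10 neuron markers (282 to 379 against 362 to 2082 CPM). They also overlapped for 10 mesoderm and muscle markers (8.47 to 91.8 against 50.4 to 316 CPM). The sum of 10 glia markers was higher in NPCs (47.9 to 75.9 against 124 to 201 CPM), with 4 called higher and 3 lower. No gene of these lists was at 0 in every library, and their part in the changes below was not tested. In bulk RNA, fewer cells of a type cannot be told apart from less RNA per cell. The second J/B ESC library stood apart in several members, and for the results that it moved most the value without it is given as well.

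Between ESCs and NPCs the domain did not move as a block. The protein-coding genes Dlk1, Rtl1, Dio3 and Begain and the noncoding Meg3 were higher in NPCs, Mirg was lower, and Rian did not pass the test. Counts normalized by TMM were tested with edgeR's quasi-likelihood method and Benjamini-Hochberg adjustment over all genes, at a threshold of 0.05. Over both crosses, 6 of the 7 were called, against 69.4% of all genes tested, so that the share of members called was close to the background. Of the 7 members, 5 were called higher, against 37.5% of all genes tested, and 1 was called lower, against 31.9%. In CPM, the 4 ESC and 4 NPC libraries did not overlap for 4 members, all higher in NPCs, against 67.1% of all genes (46.7% with NPCs higher). After TMM normalization 3 members remained without overlap, against 66.5% of genes (35.3% with NPCs higher), because Dio3 then overlapped. The median change of all genes was 0.17 on the log2 scale with TMM, 0.65 with library totals and 0.80 with scaling to Gapdh, Gusb and Tbp, so the changes of some members are also given relative to this median. A scaling moves the members and the median by about the same amount, so these values are nearly fixed by construction. The change less the median was between 1.06 and 1.08 for Meg3, between -0.74 and -0.73 for Rian and between -1.39 and -1.38 for Mirg.

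**Figure D1:**
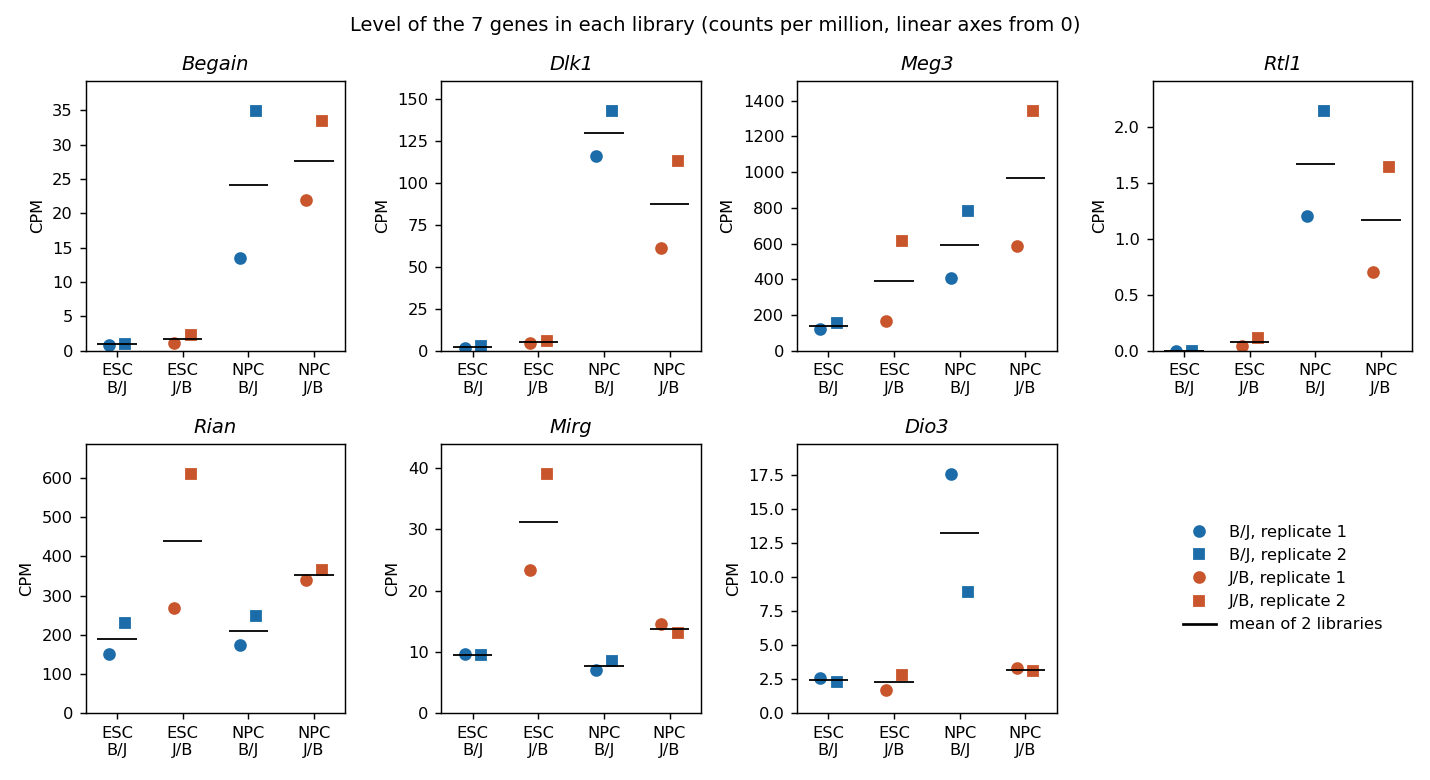
Level of each of the 7 genes in CPM (linear y axis from 0, its range differing between genes) in the 8 libraries, by stage and cross on the x axis, with the 2 libraries of a group as circle and square and their mean as a line. Dlk1, Rtl1 and Begain are near 0 in all 4 ESC libraries, and the J/B replicate 2 ESC library stands above the other ESC libraries for Meg3 (611 CPM) and Rian (611 CPM).

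Dlk1, the gene for the Notch-related membrane protein, was the member with the most counts among the protein-coding genes of the NPCs. In B/J ESCs its level was 1.35 and 2.55 CPM, in J/B ESCs 4.75 and 5.92 CPM, in B/J NPCs 117 and 143 CPM and in J/B NPCs 61.4 and 113 CPM. The lowest NPC library was at 61.4 CPM and the highest ESC library at 5.92 CPM, or 51.3 and 6.69 CPM after TMM normalization, and within ESCs the J/B libraries were above the B/J libraries without overlap. Over both crosses Dlk1 rose 23.7-fold (log2 fold change 4.57 ± 0.29, SE; 95% interval 3.90 to 5.24; edgeR, adjusted p = 2.05e-05), and it was called under each of 18 alternatives, with log2 fold changes between 4.32 and 5.21.

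Rtl1, derived from a retrotransposon gag-pol gene and needed in the placenta and in fetal muscle, was the lowest of the 7 at both stages. It had 0 counts in each of the B/J ESC libraries, 1 and 3 counts in the J/B ESC libraries, 37 and 57 counts in B/J NPCs and 23 and 42 counts in J/B NPCs. A count of 0 allows up to 0.107 CPM in the first and 0.109 CPM in the second B/J ESC library, from a limit of 3 counts. In NPCs the level was between 0.703 and 2.14 CPM, and no NPC library overlapped with an ESC library. Pooled over libraries, 159 counts in NPCs against 4 in ESCs gave a ratio of 35.9 (95% exact interval 13.8 to 133, which covers counting error only), or 107 (18.97 to 4262) without the second J/B ESC library. edgeR called it over both crosses (adjusted p = 9.16e-04) and in each of 17 alternatives. However, Rtl1 passed the filter on low counts only through the NPC libraries, where it is high. With a filter of a mean of at least 1 CPM it was not tested. Its calls, also those within each cross, are therefore a description. The sources used here do not say whether the authors' counting used strand. The 6 hairpin rows that lie inside the Rtl1 coding sequence on the other strand had 26 counts in ESCs, where Rtl1 had 4, and 26 in NPCs.

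Dio3, the thyroid hormone inactivating deiodinase, was higher in NPCs, with its highest levels in the B/J libraries. In B/J ESCs its level was 2.60 and 2.30 CPM and in J/B ESCs 1.73 and 2.83 CPM, against 17.6 and 8.88 CPM in B/J NPCs and 3.30 and 3.12 CPM in J/B NPCs. The J/B NPC libraries were thus close to the ESC libraries and those of B/J were above them, although the difference in change between the crosses did not pass the test (edgeR, adjusted p = 0.9999). Over both crosses Dio3 rose 1.99-fold (log2 fold change 0.99 ± 0.34, SE; edgeR, adjusted p = 0.0295). The call held in 10 of 18 alternatives and was lost, for instance, without the first B/J NPC library (0.68, adjusted p = 0.142). That library, with the most Dio3, also had the highest sum of trophoblast markers (2604 CPM, against 1027 to 1490 CPM in other NPC libraries). Its sum of neuron markers was the lowest (362 CPM, against 1054 to 2082 CPM). Among the others, the first J/B library had a higher trophoblast sum than the second B/J library (1490 against 1405 CPM). Its Dio3 level was lower (3.30 against 8.88 CPM). The part of these cells in the Dio3 level was not tested. Dio3os, the transcript on the other strand next to Dio3 that shares no exon with it, went from 0.257 ± 0.0723 to 2.88 ± 2.62 CPM (SD, n = 4 each), a rise of 2.68 on the log2 scale (edgeR, adjusted p = 0.00200).

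Begain, the gene for a guanylate kinase-associated protein of the postsynapse, was low in ESCs with 0.890 and 0.985 CPM in B/J and 1.06 and 2.34 CPM in J/B. In NPCs it reached 13.4 and 34.9 CPM in B/J and 21.9 and 33.4 CPM in J/B. The groups did not overlap. It rose 14.6-fold (log2 fold change 3.87 ± 0.41, SE; 95% interval 2.91 to 4.83; edgeR, adjusted p = 1.27e-04) and was called under each of 18 alternatives. Its lowest NPC library was the first of B/J, the same that had the lowest sum of neuron markers.

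Meg3, the noncoding RNA at the start of the maternal transcripts, was the member with the most counts in NPCs. Its level was 119 and 154 CPM in B/J ESCs, 168 and 611 CPM in J/B ESCs, 406 and 780 CPM in B/J NPCs and 586 and 1342 CPM in J/B NPCs. The groups overlapped through the second J/B ESC library, which was 3.64 times above the highest of the other ESC libraries and above 2 of the 4 NPC libraries. Over both crosses Meg3 rose 2.37-fold (log2 fold change 1.24 ± 0.43, SE; 95% interval 0.24 to 2.25; edgeR, adjusted p = 0.0327). Without the second J/B ESC library the change was 1.82, and without the second J/B NPC library it was 0.89 and no longer called (adjusted p = 0.115). Of 18 alternatives it was called in 13, with adjusted p between 0.00256 and 0.115.

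Rian, the host of the C/D box snoRNAs of the domain, was at 150 and 231 CPM in B/J ESCs, 270 and 611 CPM in J/B ESCs, 174 and 248 CPM in B/J NPCs and 340 and 365 CPM in J/B NPCs. In CPM the NPC range lay within the ESC range, while after TMM normalization it reached lower (153 to 302 against 183 to 690 CPM). The change over both crosses was -0.56 ± 0.26 on the log2 scale (SE; 95% interval -1.16 to 0.04; edgeR, adjusted p = 0.0864), which leaves room for a fall of more than 2-fold and for no change, and its sign depended on the scaling, with 0.062 after scaling to Gapdh, Gusb and Tbp. It also depended on single libraries. Without the second J/B ESC library the change was -0.22 (adjusted p = 0.341), and without the first it was -0.78 and called (adjusted p = 0.00976), as it then was in J/B alone (-1.24, adjusted p = 0.0147).

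Mirg, the last of the maternal noncoding RNAs and the host of the large microRNA cluster, was at 9.61 and 9.48 CPM in B/J ESCs, 23.3 and 39.04 CPM in J/B ESCs, 7.01 and 8.58 CPM in B/J NPCs and 14.6 and 13.04 CPM in J/B NPCs. Within each cross, every NPC library was below every ESC library, and across the crosses the ranges overlapped. Over both crosses it fell by 1.21 ± 0.21 on the log2 scale (SE; 95% interval -1.70 to -0.72; edgeR, adjusted p = 0.00137), a 2.31-fold lower level. It was called in 17 of 18 alternatives, the exception being scaling to Gapdh, Gusb and Tbp (-0.59, adjusted p = 0.0676). Without the second J/B ESC library the change was -1.02 (adjusted p = 0.00516).

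**Figure D2:**
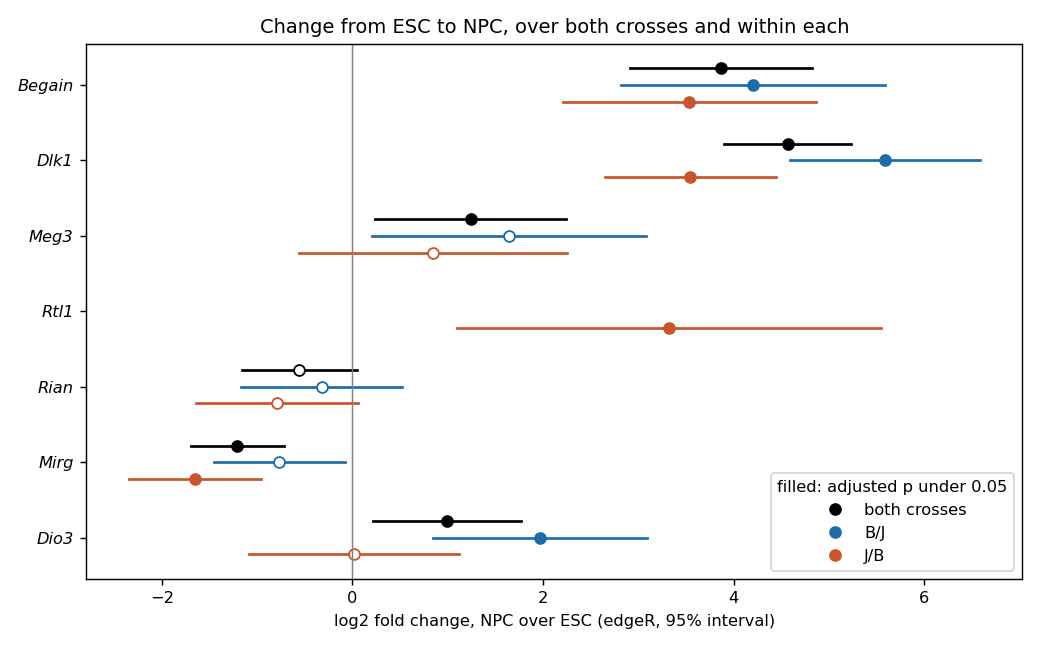
Log2 fold change of NPCs over ESCs (x axis) for each gene (y axis) for the crosses together (black), for B/J (blue) and for J/B (orange), with 95% intervals from edgeR and filled points for an adjusted p under 0.05. For Rtl1 only J/B is drawn, since B/J ESCs had 0 counts. Dlk1 and Begain lie to the right of 0 in both crosses, Mirg to the left, and Dio3 is at 1.97 in B/J and 0.02 in J/B.

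Since the 3 maternal noncoding RNAs are read from one strand, the counts of Rian and Mirg were also set against those of Meg3 within each library, where the scaling between libraries cancels. Per 100 counts of Meg3, Rian had 126, 150, 160 and 99.9 counts in the ESC libraries (B/J first) and 42.8, 31.8, 58.0 and 27.2 counts in the NPC libraries. Mirg had 8.08, 6.15, 13.9 and 6.39 counts per 100 of Meg3 in ESCs and 1.73, 1.10, 2.48 and 0.972 counts in NPCs. In both ratios all 4 NPC libraries were below all 4 ESC libraries, the second J/B ESC library included. The Rian to Meg3 ratio was 3.45-fold lower in NPCs (difference in mean log2 ratio -1.79; SD 0.30 in ESCs and 0.48 in NPCs, n = 4 each; two-sided exact permutation test, p = 0.0286, adjusted over the 4 ratios p = 0.0286). The Mirg to Meg3 ratio was 5.56-fold lower (-2.48; SD 0.54 and 0.62, n = 4 each; exact permutation p = 0.0286, adjusted p = 0.0286). A p of 0.0286 is the smallest that 4 against 4 libraries can give. Without the second J/B ESC library the differences were -1.92 for Rian and -2.59 for Mirg. Mirg against Rian was not tested, and its counts per 100 of Rian overlapped between the stages, with 4.10 to 8.64 in ESCs and 3.46 to 4.28 in NPCs. Counts were not divided by length here, so that a ratio of 100 does not mean equal numbers of molecules.

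The protein-coding Dlk1 and Rtl1 moved the other way relative to Meg3. Dlk1 had 1.14, 1.65, 2.83 and 0.969 counts per 100 of Meg3 in ESCs and 28.7, 18.4, 10.5 and 8.45 in NPCs, with no overlap (3.28 on the log2 scale; exact permutation p = 0.0286, adjusted p = 0.0286, n = 4 each). Rtl1 had at most 0.0264 counts per 100 of Meg3 in ESCs and between 0.120 and 0.296 in NPCs (3.26 on the log2 scale with 0.5 added to each count, a value that the added count sets in part because B/J ESCs had none; exact permutation p = 0.0286, adjusted p = 0.0286, n = 4 each). For both genes the ratio in NPCs was higher in the B/J than in the J/B libraries without overlap. The difference between the stages was 4.05 in B/J and 2.50 in J/B for Dlk1. The J/B value was 1.73 without the second J/B ESC library and 3.28 without the first. For Rtl1 it was 2.07 in J/B (1.64 without the second J/B ESC library), while in B/J, where Rtl1 had 0 counts in ESCs, the added count sets the value.

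**Figure D3:**
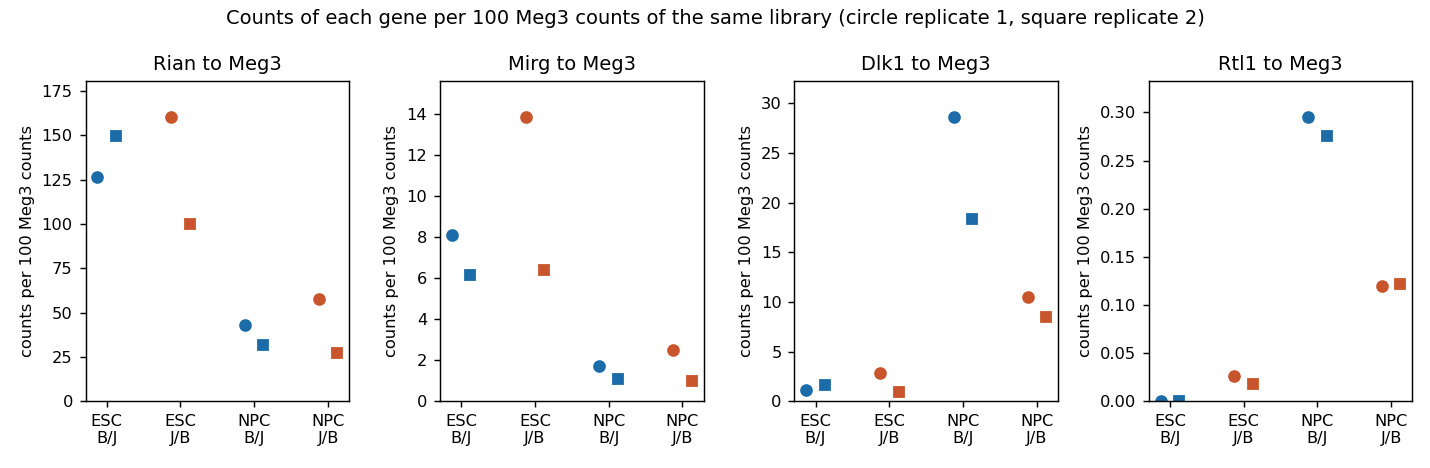
Counts of Rian, Mirg, Dlk1 and Rtl1 per 100 counts of Meg3 in the same library (linear y axes from 0), by stage and cross on the x axis, with replicate 1 as circle and replicate 2 as square, B/J in blue and J/B in orange. Rian falls from between 99.9 and 160 to between 27.2 and 58.0, and Mirg from between 6.15 and 13.9 to between 0.972 and 2.48, without overlap, while Dlk1 and Rtl1 are higher in every NPC library.

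Divided by the length of merged exons, the order of the mean levels in ESCs was Meg3 (13.6 CPM per kb), Rian (9.86), Mirg (2.11), Dio3 (1.16), Dlk1 (0.604), Begain (0.256) and Rtl1 (0.00579). Ranges of neighbours in that order overlapped except between Rian and Mirg and between Begain and Rtl1. In NPCs the order was Meg3 (40.3 CPM per kb), Dlk1 (18.0), Rian (8.81), Begain (5.03), Dio3 (4.05), Mirg (1.118) and Rtl1 (0.209), and only Dio3 and Mirg, and Mirg and Rtl1, were separated from the next without overlap. Dlk1 thus moved from the fifth to the second place and Mirg from the third to the sixth. These places rest on exon lengths of GENCODE release 39. The authors' alignments were guided by refGene-based models, so the exons counted may differ. On the length of the longest transcript in place of merged exons, Rian came before Meg3 in ESCs (39.03 against 18.1 CPM per kb) and before Dlk1 in NPCs (34.9 against 23.3 CPM per kb), with overlapping ranges in both cases.

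Within B/J, 4 of 7 members were called between the stages, against 55.8% of all genes, and within J/B also 4 of 7, against 54.5%. Dlk1, Rtl1 and Begain were called in both crosses, Dio3 in B/J and Mirg in J/B. Dlk1 rose by 5.59 ± 0.43 on the log2 scale in B/J (SE; edgeR, adjusted p = 1.75e-04) and by 3.55 ± 0.39 in J/B (adjusted p = 4.78e-04). Begain rose by 4.20 ± 0.60 in B/J (adjusted p = 0.00103) and by 3.54 ± 0.57 in J/B (adjusted p = 0.00190). The B/J change of Begain was 3.40 without the second B/J NPC library (adjusted p = 0.00391), and the J/B change was 4.18 without the second J/B ESC library (adjusted p = 0.00470). In B/J, Rtl1 was at least 15.2-fold higher in NPCs, set against a limit of 3 counts in each ESC library (11.1 to 19.8 with 1 of the 4 libraries left out), and in J/B the pooled ratio was 13.7 (95% exact interval 5.09 to 51.7). Of the 4 ESC counts behind that ratio 3 were in the second J/B ESC library, without which it was 25.1 (4.35 to 1007), and without the second J/B NPC library it was 8.62 (2.95 to 34.3). The J/B call of Rtl1 (adjusted p = 0.0220) was lost without the first or the second J/B ESC library or the second J/B NPC library, with adjusted p of 0.0961, 0.0529 and 0.119.

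Dio3 rose by 1.97 ± 0.48 in B/J (adjusted p = 0.0104) and was at 0.02 ± 0.48 in J/B (95% interval -1.09 to 1.119; adjusted p = 0.979). The B/J call of Dio3 was lost without the first or second B/J ESC library or the first B/J NPC library. The log2 fold changes were then 2.09, 1.86 and 1.36. Mirg fell by 1.65 ± 0.30 in J/B (edgeR, adjusted p = 0.00301). In B/J it was at -0.77 ± 0.30 (adjusted p = 0.0580), where 3 of 18 alternatives called it. Scaled to Gapdh, Gusb and Tbp, the J/B change of Mirg was -0.93 and no longer called (edgeR, adjusted p = 0.0560). Meg3 did not pass in either cross alone, with 1.64 ± 0.62 in B/J (adjusted p = 0.0528) and 0.84 ± 0.60 in J/B (adjusted p = 0.264). Of 18 alternatives, however, 11 called it in B/J and 2 in J/B. Without the second J/B ESC library the J/B change of Meg3 passed the test (adjusted p = 0.0277), and without the second J/B NPC library it was 0.13 (adjusted p = 0.893).

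The difference between the crosses in these changes was tested as an interaction, in which 0 of the 7 members and 0% of all genes were called by edgeR. At an unadjusted p under 0.05 there were 573 genes, while DESeq2 called 11 and limma-voom 0. In simulated counts of the same design, the interaction test recovered 18% of 4-fold and 0% of 2-fold differences over 15970 genes. The change of Dlk1 was 2.04 smaller in J/B on the log2 scale (-2.04 ± 0.52, SE; edgeR, unadjusted p = 0.00456, adjusted p = 0.9999), and that of Dio3 was also smaller (-1.95 ± 0.67; unadjusted p = 0.0205, adjusted p = 0.9999).

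The reciprocal crosses themselves were compared within each stage. In ESCs, 0 of 7 members and 0% of all genes were called by edgeR, with 346 genes at an unadjusted p under 0.05, 10 called by DESeq2 and 0 by limma-voom. Mirg, at 31.2 ± 11.1 CPM in J/B against 9.55 ± 0.0890 CPM in B/J (SD, n = 2 each), differed by 1.66 ± 0.30 on the log2 scale (SE; edgeR, unadjusted p = 6.17e-04, adjusted p = 1) and was the member among the 10 genes of DESeq2 (adjusted p = 0.00165). The point estimates of Dlk1 (1.42), Meg3 (1.45), Rian (1.16), Begain (0.82) and Mirg were above 0, as was that of Rtl1 (4 counts in J/B and 0 in B/J, which gives no fold), and that of Dio3 was below (-0.15). Without the second J/B ESC library the values were 1.28 for Dlk1 and for Mirg, 0.50 for Rian, 0.29 for Meg3 and 0.18 for Begain. In NPCs, 0 of 7 members were called by edgeR, against 0.00610% of all genes, which was 1 gene, with 1050 genes at an unadjusted p under 0.05, 70 called by DESeq2 and 1 by limma-voom. Dio3, at 3.21 ± 0.127 CPM in J/B and 13.2 ± 6.16 CPM in B/J (SD, n = 2 each), differed by -2.10 ± 0.48 on the log2 scale (SE; edgeR, unadjusted p = 0.00265, adjusted p = 0.734) and was the member among the 70 genes of DESeq2 (adjusted p = 0.0152).

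The second J/B ESC library was above every other ESC library in all 7 genes, by 3.64 times for Meg3, 2.27 for Rian, 2.20 for Begain, 1.68 for Mirg, 1.25 for Dlk1 and 1.09 for Dio3, and with 3 counts against at most 1 for Rtl1. Its depth (26510098 counted reads) was within the range of the others, and its summed pluripotency markers were the lowest of the ESC libraries (5740 CPM, against 6389 to 8822 CPM). Its share of reads assigned to no gene was the highest of the ESC libraries (8.44%, against 5.76% to 6.65%). The sums of its neuron (293 CPM), trophoblast (53.4 CPM) and fibroblast markers (13.3 CPM) were within the range of the other ESC libraries. The part of any of these in its Meg3 level was not tested. In all 4 groups Meg3 was higher in the library numbered 2, by factors of 1.30 and 3.64 in B/J and J/B ESCs and 1.92 and 2.29 in B/J and J/B NPCs. The same held in all 4 groups for Dlk1 (1.23 to 1.89), Rian (1.07 to 2.27) and Begain (1.11 to 2.60). The share of reads without a gene was also higher in the library numbered 2 of each group, with 6.02% against 5.76% and 8.44% against 6.65% in B/J and J/B ESCs and 9.05% against 7.71% and 10.9% against 8.35% in B/J and J/B NPCs, and its part in these differences was not tested. Libraries were made with either of 2 kits and on either of 2 sequencers, and which library had which was not given, so that a batch could not be set against this.

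Counts on the small RNA rows of the domain come from polyA RNA and so from host transcripts or precursors, not from mature microRNAs. Between Dlk1 and Dio3 there were 61 microRNA hairpin rows, of which 30 had any count and 13 had at least 10 over the 8 libraries. Their summed levels in CPM were 0.427, 0.875, 1.73 and 4.34 in the ESC libraries (B/J first) and 1.01, 2.45, 1.96 and 4.45 in the NPC libraries. The highest ESC value was again that of the second J/B library. In B/J both NPC libraries were above both ESC libraries, in J/B the stages overlapped, and no test was made on these sums. The row with the most counts was Mir3072, inside a Mirg exon at chr12:109714312-109714394, with 118 counts, followed by Mir377, also in a Mirg exon at chr12:109706944-109707011, with 54. Their mature sequences are given with the seed in capitals, since these are the hairpins for which the libraries held most reads.
miR-3072-5p: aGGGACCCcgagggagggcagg
miR-377-3p: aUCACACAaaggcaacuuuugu
The hairpin rows of miR-127 and miR-433 inside Rtl1 were at 0 in every library, and those of miR-434 and miR-431 had 31 and 12 counts in all.

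Of the snoRNA rows, 7 are placed inside Rian by RefSeq (GRCm38.p6), 4 of them also by the annotation of the files' build, in Rian exons. C/D box snoRNAs guide the methylation of other RNAs, and those of this domain are released from the introns of their host. AF357359 held 2478 of the 2767 counts of the 7 rows, with 6.55 and 9.48 CPM in B/J ESCs, 11.1 and 20.03 CPM in J/B ESCs, 7.14 and 12.98 CPM in B/J NPCs and 10.1 and 13.9 CPM in J/B NPCs. Its stages overlapped, with the highest level in the second J/B ESC library, and its change was -0.50 ± 0.30 on the log2 scale (SE; edgeR, adjusted p = 0.164), near that of Rian (-0.56). AF357426 had 10, 9, 10 and 20 counts in the ESC libraries (B/J first) and 2, 1, 7 and 5 counts in the NPC libraries, without overlap. It fell by 2.53 ± 0.56 on the log2 scale (SE; edgeR, adjusted p = 0.00430). AF357426 passed the filter on low counts only through the J/B ESC libraries (0.444 and 0.754 CPM), where it was highest, so this call is a description. DQ267102, the other row that passed the filter on low counts, was at -0.87 ± 0.95 (adjusted p = 0.433), and AF357425, DQ267100, DQ267101 and AF357355 did not pass it, with 22 to 67 counts each over the 8 libraries. The sources used here do not say how reads shared by the host and a snoRNA inside it were counted.

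Across the 8 libraries the log2 levels of Rian and Mirg had a Pearson correlation of 0.89, those of Meg3 and Rian of 0.36 and those of Meg3 and Mirg of -0.01. After the group means were taken away these values were 0.81, 0.86 and 0.68. The 8 libraries share their lines and stages, and the values are a description with no test. For each member with a mean of at least 1 CPM, the genes most like it over the 8 libraries were taken by the same correlation. For Dlk1 these were Calcrl (0.998), Ccbe1, Fam214a, Ndst2 and Mfap2 (0.994). For Meg3 they were Tnrc6a (0.992), Bicra, Kmt5b, 9930021J03Rik and Rc3h2 (0.955). Begain was most like Dcx (0.996), a neuron marker of the list above, with Pcdhb19, Mab21l1, Bach1 and Lamp5 following. Dio3 was most like Gjb5 (0.978), with Slc30a2, Fgfbp1, St3gal4 and Cers5 following. Tek was the closest gene to Mirg (0.967) and the fifth closest to Rian (0.889), and AF357359, the snoRNA row inside Rian, was the second closest to Rian (0.929).

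Regulators of the domain's imprint were mostly lower in NPCs. Of 17 regulators tested, among them the factors that protect the methylated allele in early embryos, 14 fell and 1 rose, against 31.9% and 37.5% of all genes tested, with a median change of -2.02 on the log2 scale against 0.17 over all genes. Dppa3, which protects maternal methylation in the zygote and the Dlk1-Meg3 imprint in stem cells, went from 24.4 ± 12.5 to 0.907 ± 0.878 CPM (SD, n = 4 each; log2 fold change -5.78; edgeR, adjusted p = 9.42e-05). Dnmt3l, the cofactor of the de novo methyltransferases, went from 183 ± 54.2 to 7.25 ± 6.71 CPM (-5.36; adjusted p = 8.90e-05), and Tet1, which oxidises methylcytosine, from 558 ± 174 to 50.3 ± 23.2 CPM (-3.96; adjusted p = 1.19e-04). Aff3, which binds the control region of the domain, was the gene that rose (10.2 ± 2.94 to 55.4 ± 14.4 CPM; 1.97; adjusted p = 3.66e-04).

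Of 12 genes that flank the domain on distal chromosome 12, 2 rose and 4 fell, against 37.5% and 31.9% of all genes, with a median of -0.26. Evl, a regulator of actin filaments, rose by 1.69 (edgeR, adjusted p = 0.00158) and Slc25a47 by 1.73 (adjusted p = 0.00639). Hsp90aa1, the inducible cytosolic HSP90, fell by 2.59 (adjusted p = 1.09e-05), Mok by 2.28, Wars by 0.83 and Wdr20 by 0.46 on the log2 scale. Yy1 (-0.04), Ppp2r5c (-0.12), Dync1h1 (-0.62), Wdr25 (-0.40), Slc25a29 (0.61) and Degs2 (3.69, 0.0638 against 0.404 CPM on average in ESCs and NPCs) did not pass the test.

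Among the partners of the members' functions, 14 of 20 Notch pathway genes rose and 2 fell, against the same 37.5% and 31.9% of all genes, with a median of 1.38. Hes5, a target of Notch signalling and one of the neural precursor markers, went from 0.149 ± 0.165 to 32.2 ± 17.3 CPM (SD, n = 4 each; edgeR, adjusted p = 1.19e-04) and Dlk2, the closest relative of Dlk1, from 0.0372 ± 0.0534 to 3.11 ± 1.54 CPM (adjusted p = 6.35e-04). Notch4 (-4.42) and Rbpj (-1.46), the DNA-binding partner of cleaved Notch, fell. Of 13 tested genes of thyroid hormone handling, 5 rose and 3 fell, with a median of 0.46, so that the share that rose was near the background of 37.5% and the share that fell below that of 31.9%. The receptor genes Thra (3.49; adjusted p = 7.56e-05) and Thrb (3.73; adjusted p = 6.48e-04) rose, and Klf9, a target of the hormone, fell (-3.80; adjusted p = 9.31e-06).

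Of 9 tested genes of the Rtl family, the relatives of Rtl1 derived from the same kind of gag gene, 8 rose and 0 fell. Rtl1 itself was not among these 9. Their median change was 2.45, where 37.5% of all genes rose and 31.9% fell. Rtl5 went from 0.135 ± 0.0905 to 27.6 ± 17.0 CPM and Peg10, an imprinted gene of the placenta, from 407 ± 104 to 3122 ± 884 CPM (SD, n = 4 each), beside the higher sum of trophoblast markers given above. Of 9 genes of microRNA processing, 6 fell and 1 rose (median -0.66; 31.9% and 37.5% over all genes), among them Xpo5 (-1.39) and Drosha (-1.03), which act on hairpins such as those of the domain, and the one that rose was Ago4 (3.75). Of 33 imprinted genes outside the domain, 25 rose and 4 fell, with a median of 1.90, beside the same shares over all genes. The members of the domain had a median of 1.24. These lists were drawn up with earlier results of these data known, so their counts are a description.

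**Figure D4:**
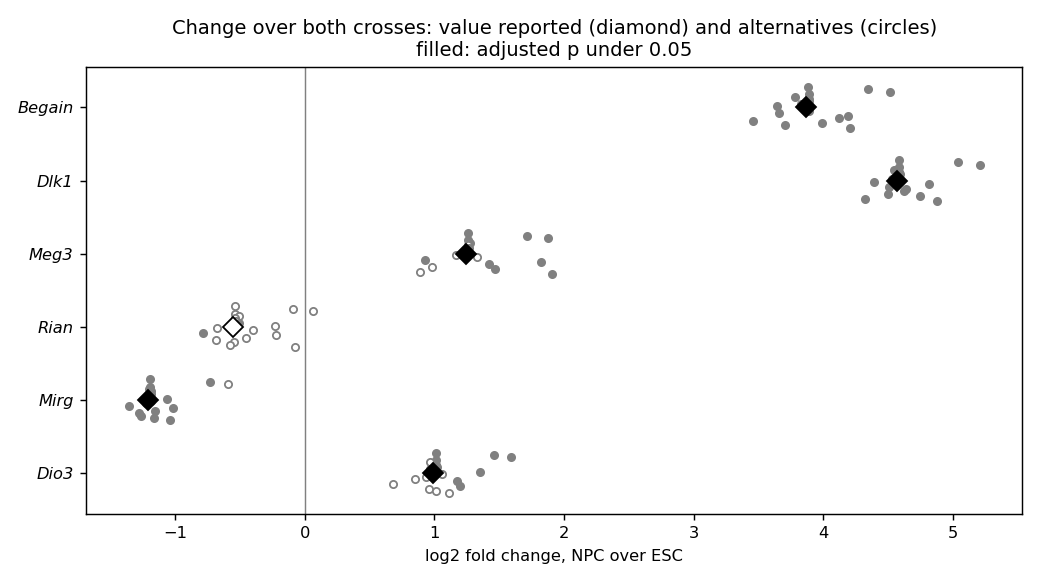
Log2 fold change of NPCs over ESCs over both crosses (x axis) for 6 of the 7 genes (y axis; Rtl1 is left out because of its 0 counts), with the value reported as a diamond and each alternative of scaling, tool, filter, block or left-out library as a circle, filled where the adjusted p was under 0.05. Dlk1 and Begain are filled throughout, Meg3 and Dio3 hold both kinds, and Rian lies between -0.78 and 0.062.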

How the data were processed

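Paired-end polyA RNA-seq of ESCs and day 12 NPCs from lines BJE2 (B/J) and JBE6 (J/B) was analysed. TopHat2 alignments to mm39 masked at JF1 SNPs, guided by refGene-based models and restricted to properly paired reads of quality 20 or more, were turned by the authors into the deposited raw counts per gene, summed over both alleles. HTSeq, DESeq2 and edgeR are named in the submitters' processing notes without version, and the sources used here do not state the strand setting of the counting. Reads without a gene (5.76% to 10.9% of a library) and ambiguous reads (0.355% to 0.554%) were left out of totals.

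Counts were fitted in R 4.3.3 with edgeR 4.0.16 (filterByExpr with a minimum count of 10, TMM, 4 group means over all 8 libraries, robust quasi-likelihood) and adjusted by the Benjamini-Hochberg method at 0.05 over 16399 genes. As alternatives, libraries were scaled by RLE, by their totals or by Gapdh, Gusb and Tbp, and fits were made with DESeq2 1.42.0, limma-voom 3.58.1, no filter, a mean of at least 1 CPM, a replicate block, the 4 libraries compared alone and each library left out. In simulated counts, the test between stages recovered 32% of 2-fold and 78% of 4-fold changes over 15979 genes. Count ratios within a library took 0.5 added counts and were tested by exact two-sided permutation of the 8 libraries. Exact 95% intervals of pooled counts and the limit of 3 counts for a 0 cover counting error only, while 95% intervals of edgeR's changes rest on its SE, which takes in the spread between libraries. Positions and merged exons are from GENCODE release 39 (GRCm39), and sequences are from RefSeq (GRCm38.p6) and GENCODE transcripts.

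The 7 members and the gene lists were chosen with earlier results of these data known. Besides the members, named genes were up to 3 per list and direction by size of a passing change (mean of at least 1 CPM), all flanking genes, the 5 most correlated genes of each member, defining markers, and Dio3os and the single hairpin and snoRNA rows, chosen after their values were seen. Allelic expression, chromatin and DNA methylation were not analysed here.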

Additional observations from a re-analysis of the deposited data

Results flagged for a closer look

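In the 4 ESC libraries, the level of Meg3 had 1 library far from the others. The second J/B library was at 611 CPM and the others at 119, 154 and 168 CPM, so that its gap to the nearest made up 0.900 of the whole range, above the critical value of Dixon's test at 95% for 4 libraries. For Begain the same library was at 2.34 CPM and the others between 0.890 and 1.06 CPM, a gap of 0.879 of the range. Of 14 such tests, 2 passed the critical value, and chance passes it in about 1 of 20 groups.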

How the results depend on the processing

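Of the 125 values of single genes for NPCs against ESCs over both crosses under alternatives, 108 kept their direction and their side of the threshold, 14 lost a call, 2 gained one and 1 changed sign. The count of members called, 6, was between 4 and 7. The sign changed for Rian with Gapdh, Gusb and Tbp scaling (0.062) and in B/J with that scaling (0.20) or library totals (0.15). Dio3 in J/B changed sign with the replicate block (-0.0088) and with 1 library left out (-0.26 to 0.38), below 0 without the first J/B ESC or the first J/B NPC library, and in J/B against B/J ESCs its range was -0.51 to 0.12, above 0 without the first J/B ESC library. With 1 library left out, the interactions of Meg3 (-1.52 to 0.36) and Rian (-0.91 to 0.20) were above 0 without the second J/B ESC library and that of Begain (-1.20 to 0.13) without the second B/J NPC library. In NPCs, J/B against B/J ranged from -0.38 to 0.94 for Begain, below 0 without the first B/J or the second J/B library, and from -0.061 to 1.15 for Meg3, below 0 without the second J/B library. None of these values was called, and the cause was not tested. DESeq2 called 1 member in each of the cross comparisons in place of 0. The ratios to Meg3 with 1 library left out were -1.99 to -1.62 for Rian, -2.73 to -2.22 for Mirg, 2.95 to 3.58 for Dlk1 and 3.01 to 3.59 for Rtl1, each at the smallest exact p that 3 against 4 libraries allow (0.0571). In B/J alone they were 4.05 (Dlk1) and 4.44 (Rtl1, with 0 ESC counts and so set by the added 0.5), and in J/B alone 2.50 and 2.07.

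The replicate numbers are not said to pair libraries. Differences between replicates 1 and 2 correlated at 0.52 within ESCs and 0.59 within NPCs but at 0.049 to 0.091 between stages. With a replicate block edgeR called Rian (-0.51, adjusted p = 0.0309), but not with a block within each stage (-0.23, adjusted p = 0.271). Meg3 was called in both crosses with the replicate block (B/J 1.54, adjusted p = 0.00666; J/B 0.94, adjusted p = 0.0404) and with the block within each stage in B/J (adjusted p = 0.0127) and not in J/B (adjusted p = 0.0893). Mirg in B/J (-0.77, adjusted p = 0.0463) and Rian in J/B (-0.70, adjusted p = 0.0420) were also called with the replicate block, and not with the block within each stage (adjusted p = 0.115 and 0.131). Pairing the ratios by cross and number cannot move their means of -1.79 (Rian), -2.48 (Mirg), 3.26 (Rtl1) and 3.28 (Dlk1), and the smallest exact p of sign flips is 0.125. Low counts limit Rtl1 and the hairpin and snoRNA rows, and 2 libraries per group limit the comparisons of crosses. The block within each stage, leaving out both ESC libraries numbered 2 and the ratios in each cross alone, also with 1 library left out, and the pooled J/B ratio of Rtl1 with 1 library left out were chosen after seeing the data.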
